A study of Danio rerio with 12 samples.

Results

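The amino acid and peptide transporters described here are the genes of 8 solute carrier families, SLC1, SLC3, SLC6, SLC7, SLC15, SLC36, SLC38 and SLC43. They were taken from the zebrafish gene name table by their symbols, and 86 of 37541 gene identifiers matched. Of these, 85 encode carriers or their partner chains, and 1, SLC7A6OS, only shares part of its name with its neighbour slc7a6 and is no carrier. The SLC6 family gave 27 members, SLC7 18, SLC38 13, SLC1 12, SLC43 6, SLC15 5, SLC3 3 and SLC36 2. SLC6A20, a proline carrier of the mammalian gut, was not analysed here.

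RNA was taken from whole AB larvae with 2 copies of the mutant ercc2/xpd allele, a small deletion made with CRISPR/Cas9 (ercc2/xpd -/-), and from their siblings, in which wild type (ercc2/xpd+/+) and heterozygous (ercc2/xpd+/-) larvae were mixed. Pools of larvae of each genotype were sequenced as 3 libraries at 5 dpf (days post fertilization) and 3 at 7 dpf, 12 in all. Ercc2/Xpd is a helicase of TFIIH, the complex that opens DNA in transcription and in nucleotide excision repair. A single mutant allele was studied, each library is an average over many larvae and all organs, and the sibling group holds 2 genotypes.

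Carriers of these families move amino acids and short peptides across membranes. In the absorbing epithelia of gut and kidney, apical carriers bring peptides (SLC15) and neutral or basic amino acids (SLC6A19, SLC6A18, SLC7A9 with SLC3A1) into the cell, and other carriers pass them on to the blood. SLC1 and SLC6 members clear glutamate, GABA, glycine and monoamines from synapses, SLC38 and SLC7 members supply growing cells, and SLC36 and some SLC38 members work on lysosomes. These roles are mostly known from mammals.

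The libraries held 13403615 to 15084280 recovered reads, so depth differed little between groups. FPKM here are fragments per kilobase of transcript, with each library scaled by a median of ratios size factor and not by its total reads. At 7 dpf these factors were 0.876 to 0.897 in siblings and 0.928 to 1.12 in mutants. ercc2 itself stood at 2.56 to 3.14 FPKM in the mutants at 5 dpf against 3.78 to 5.23 in the siblings, and at 2.96 to 3.57 against 4.26 to 6.38 at 7 dpf. The groups did not overlap at either age, and the test did not call the difference (log2 fold change -0.48, adjusted p = 0.20, and -0.62, adjusted p = 0.061). In a separate estimate of library weights by limma, sibling library 2 of 5 dpf (0.458) and mutant library 3 of 7 dpf (0.537) had the lowest values. Nothing says whether the pools came from separate clutches, so every p-value below measures only the spread between these libraries.

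Zebrafish has several copies of many of these carriers, and the gene name table often gives the copies one human-style symbol. The copies were told apart by the genes next to them, which were compared with the neighbours of the named copies in RefSeq, and the name given here (for example slc15a1b) is that of the RefSeq copy. Of the 85 carriers, 83 got their name this way (the neighbouring slc6a19a copies by their order from slc6a18), and the 2 slc6a22 genes had names of their own. Carriers with more than 1 copy numbered 24 and held 50 of the members. In 7 of the 24, the copy with the highest mean over all libraries was at least 10-fold above the lowest, for example slc3a2b (218 FPKM) against slc3a2a (12.4 FPKM).

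Levels covered a wide range. By the mean over the 12 libraries, 16 carriers were at 10 FPKM or more, 48 between 1 and 10 FPKM, and 21 under 1 FPKM. The highest in its family was slc3a2b in SLC3 (218 FPKM), slc38a5b in SLC38 (103 FPKM), slc43a2a in SLC43 (45.4 FPKM), slc7a8a in SLC7 (45.3 FPKM), slc1a5 in SLC1 (38.5 FPKM), slc6a4a in SLC6 (11.5 FPKM), slc15a1b in SLC15 (8.32 FPKM) and slc36a1 in SLC36 (3.32 FPKM). In SLC1, SLC6 and SLC15 the highest member was not the same in every group. In mutants slc15a2 was above slc15a1b, with means of 4.03 against 1.49 FPKM at 5 dpf and 3.15 against 2.07 FPKM at 7 dpf. slc7a7, slc15a5 and slc38a8b were listed at 0 in all 12 libraries. A gene was tested where 3 or more libraries held at least 0.5 FPKM, and 77 members met this. The 9 left out included slc1a7a, slc1a7b, slc6a3, slc6a5, slc7a7, slc15a5, slc38a8a and slc38a8b. Of the 77, 59 reached this level in all 12 libraries, and slc3a1 and slc6a4b reached it only through sibling libraries.

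The first question was which carriers the loss of Ercc2/Xpd moved. At 5 dpf, 9 of 77 members (11.7%) were lower in mutants and 0 were higher, by limma on log2(FPKM + 0.5) with p-values adjusted over 23648 genes and called under 0.05. Over all genes tested, 2.16% were called lower and 0.655% higher, 2.82% in either direction. At an unadjusted p under 0.05, 16 members were lower and 2 higher, 18 of 77 against 3430 of all 23648 genes. Voom on the recovered reads called 9 lower and 0 higher. At 7 dpf, 9 members were lower (11.7%) and 3 higher (3.9%), against 3.25% and 1.8% of all genes, 5.05% in either direction. At an unadjusted p under 0.05, 17 members were lower and 14 higher at this age, 31 of 77 against 4629 of all genes. Voom called 9 lower and 3 higher. The split of the limma calls at 7 dpf moved with the scaling of the libraries: TPM gave 7 lower and 8 higher, and scaling by total reads gave 8 lower and 8 higher. In whole larvae fewer cells of a type and less RNA per cell cannot be told apart, which holds for every result here. The same 8 genes were lower at both ages: slc15a1a, slc15a1b, slc15a2, slc6a18, slc6a19a.1, slc6a19a.2, slc6a19b and slc7a9. Each is a carrier of peptides or of neutral or basic amino acids, but the 3 higher at 7 dpf carry neutral or basic amino acids too. The share of all genes called lower at both ages was not counted. With the replicate number as a block within each age, slc6a19b was not called at 5 dpf (limma, adjusted p = 0.086). The median log2 fold change of the members was -0.09 at 5 dpf and 0.02 at 7 dpf, against 0.018 and 0.014 over all genes tested. At 5 dpf, 18 members were lower in every mutant library than in any sibling library (10.3% of all genes) and 5 were higher in the same way (9.31% of all genes). At 7 dpf these counts were 16 lower (12.9% of all genes) and 18 higher (12.6% of all genes). Some of the lower carriers belong to the digestion genes that the study showed from these libraries, so their direction here is not independent evidence. For a peptide carrier among them, the study also used in situ hybridization of whole larvae, as given below.

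**Figure D1:**
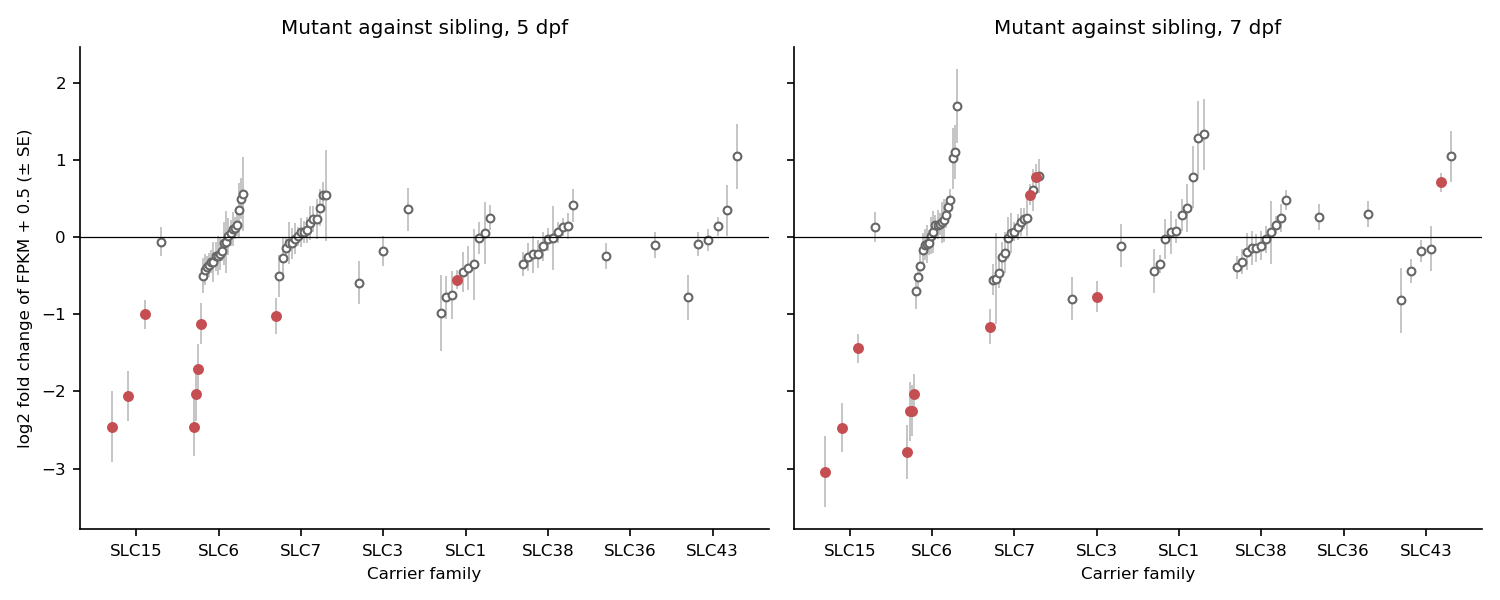
The log2 fold change (FPKM + 0.5) of the 77 tested members, mutant against sibling, is plotted by family at 5 dpf (left) and 7 dpf (right), with bars for 1 SE and filled points for called genes. The called points lie deepest in SLC15 and SLC6, down to -2.46 at 5 dpf and -3.04 at 7 dpf, and the 3 filled points above 0 are at 7 dpf only.

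Peptide carriers were lower in mutants at both ages. SLC15 proteins take up di- and tripeptides together with protons, and 3 of the 4 tested members fell at both ages. Among all genes tested, 2.16% were called lower at 5 dpf and 3.25% at 7 dpf (limma). slc15a1b (ENSDARG00000044528; GRCz11 chromosome 6, 12556427 to 12588044, minus strand) encodes PepT1, the peptide carrier of the intestinal brush border. At 5 dpf it stood at 0.612, 2.68 and 1.18 FPKM in mutant replicates 1 to 3 and at 18.9, 6.86 and 6.39 FPKM in the siblings. At 7 dpf it stood at 3.28, 2.07 and 0.864 FPKM in mutants and at 21.1, 18.4 and 17.5 FPKM in siblings. The groups did not overlap at either age, and sibling library 1 of 5 dpf was well above the other siblings of that age. The log2 fold change was -2.46 ± 0.46 (SE, adjusted p = 0.013) at 5 dpf and -3.04 ± 0.46 (adjusted p = 0.0024) at 7 dpf. Apart from the libraries, the paper examined this gene by in situ hybridization of whole larvae. There it reports a sharp fall in mutants at the younger age and hardly any signal at the older.

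The second PepT1 copy, slc15a1a (ENSDARG00000100315; chromosome 9, 1137430 to 1162804, plus strand), was expressed at a lower level and fell as well. It stood at 0.224, 1.01 and 0.685 FPKM in mutants and at 5.90, 4.28 and 2.55 FPKM in siblings at 5 dpf. At 7 dpf the mutants were at 0.952, 0.380 and 0.307 FPKM and the siblings at 4.47, 5.87 and 5.04 FPKM. Every mutant library was below every sibling library of its age. By log2 fold change it fell by 2.06 ± 0.32 (adjusted p = 0.0043) at 5 dpf and by 2.47 ± 0.32 (adjusted p = 9.1e-04) at 7 dpf. The gene shares 589 bases with STK24 on the same strand (1.61 FPKM on average), and the sources used here do not say how reads from there were assigned.

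slc15a2 (ENSDARG00000032010; chromosome 9, 37320222 to 37339656, plus strand) encodes PepT2, which in mammals reabsorbs peptides in the kidney and is also found in brain. It stood at 3.40, 4.25 and 4.44 FPKM in mutants and at 7.79, 7.77 and 10.1 FPKM in siblings at 5 dpf. At 7 dpf the mutants were at 2.47, 3.67 and 3.32 FPKM and the siblings at 12.1, 8.28 and 8.10 FPKM. The fall was smaller than in the PepT1 copies but the groups were well apart, with a log2 fold change of -1.0 ± 0.19 (adjusted p = 0.014) at 5 dpf and -1.44 ± 0.19 (adjusted p = 9.6e-04) at 7 dpf. slc15a4, a lysosomal histidine and peptide carrier, was at 1.98 to 4.15 FPKM in all libraries, with log2 fold changes of -0.06 (adjusted p = 0.93) and 0.13 (adjusted p = 0.77). The 5 dpf calls moved with single libraries and with the settings: slc15a1b lost its call without mutant replicate 1 (adjusted p = 0.069), and slc15a2 lost it without mutant replicate 1 (0.079) or sibling replicate 3 (0.060). Limma on only the 2 groups gave an adjusted p of 0.051 for slc15a1b, and TPM gave 0.085 for slc15a2.

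**Figure D2:**
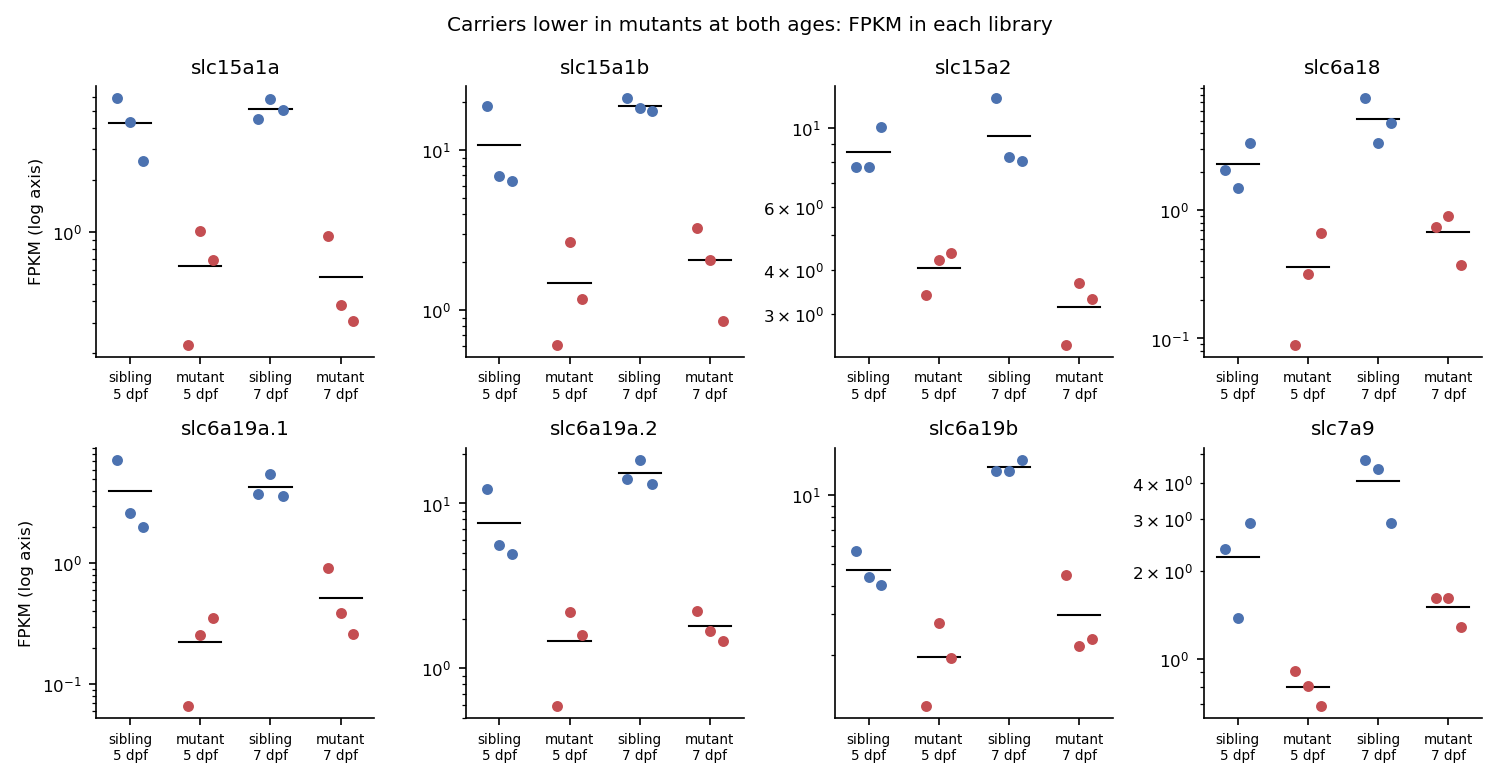
FPKM on a log axis is plotted for the 8 carriers lower in mutants at both ages, with a point per library in order of replicate number, blue for siblings and red for mutants, and a bar for the mean of 3. In each panel the red points lie below the blue points of the same age, from 0.0659 FPKM (slc6a19a.1, mutant library 1 of 5 dpf) to 21.1 FPKM (slc15a1b, sibling library 1 of 7 dpf).

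The apical neutral amino acid carriers fell with the peptide carriers. SLC6A19 (B0AT1) is the main sodium-driven carrier of neutral amino acids in the mammalian gut and kidney, and SLC6A18 is its close relative in the kidney. In zebrafish, slc6a18 (ENSDARG00000068387, 645872 to 657439), slc6a19a.1 (ENSDARG00000018621, 663796 to 677713) and slc6a19a.2 (ENSDARG00000091560, 684502 to 704000) lie next to each other on the minus strand of chromosome 19. The remaining copy, slc6a19b (ENSDARG00000056719), lies on chromosome 16, 18974064 to 18998549, plus strand. All 4 genes were lower in mutants at both ages. The sources used here do not say how reads that match more than 1 of these copies were assigned.

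slc6a19a.1 was very low in mutants at 5 dpf, with 0.0659, 0.257 and 0.351 FPKM against 7.22, 2.61 and 2.02 FPKM in siblings. At 7 dpf it stood at 0.910, 0.388 and 0.263 FPKM in mutants and at 3.77, 5.47 and 3.64 FPKM in siblings. The groups did not overlap, with a log2 fold change of -2.46 ± 0.38 (adjusted p = 0.0036) at 5 dpf and -2.26 ± 0.38 (adjusted p = 0.0040) at 7 dpf. The 0.5 added to each value holds back the fold change of a gene this low. slc6a19a.1 reached 0.5 FPKM in 3 sibling libraries of each age, 0 mutant libraries of 5 dpf and 1 mutant library of 7 dpf. It therefore passed the filter only with the siblings, where it was higher, and its calls are not independent of the filter.

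slc6a19a.2 was the highest SLC6A19 copy in siblings, while in mutants slc6a19b had the higher mean (1.96 against 1.46 FPKM at 5 dpf and 2.99 against 1.79 FPKM at 7 dpf). It stood at 0.589, 2.20 and 1.59 FPKM in mutants and at 12.3, 5.59 and 4.91 FPKM in siblings at 5 dpf. At 7 dpf the mutants were at 2.22, 1.69 and 1.46 FPKM and the siblings at 14.1, 18.4 and 13.1 FPKM. Again the groups did not overlap. The log2 fold change was -2.03 ± 0.35 (adjusted p = 0.0079) at 5 dpf and -2.78 ± 0.35 (adjusted p = 6.9e-04) at 7 dpf. With only the 2 groups, slc6a19a.2 was not called at 5 dpf (limma, adjusted p = 0.056).

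slc6a19b stood at 1.19, 2.75 and 1.93 FPKM in mutants and at 5.67, 4.36 and 4.02 FPKM in siblings at 5 dpf. At 7 dpf the siblings had risen to 12.7, 12.8 and 14.3 FPKM, while the mutants were at 4.46, 2.17 and 2.34 FPKM. The log2 fold change was -1.12 ± 0.26 (adjusted p = 0.044) at 5 dpf and -2.03 ± 0.26 (adjusted p = 8.0e-04) at 7 dpf. With TPM (adjusted p = 0.13), total reads (0.11), only the 2 groups (0.087) or library weights (0.07), slc6a19b was not called at 5 dpf. The call at 5 dpf was marginal: it was lost with the replicate number as a block within each age (adjusted p = 0.086), without mutant library 1 of 5 dpf (0.19) or 3 (0.097), without any of sibling libraries 1, 2 and 3 of 5 dpf (0.12, 0.11 and 0.072), and without any of sibling libraries 1, 2 and 3 of 7 dpf (0.063, 0.066 and 0.060).

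slc6a18 stood at 0.0897, 0.321 and 0.664 FPKM in mutants and at 2.05, 1.498 and 3.34 FPKM in siblings at 5 dpf. At 7 dpf the mutants were at 0.738, 0.901 and 0.375 FPKM and the siblings at 7.47, 3.36 and 4.76 FPKM. Every mutant library was under 1 FPKM and every sibling library above it. The log2 fold change was -1.71 ± 0.33 (adjusted p = 0.016) at 5 dpf and -2.25 ± 0.33 (adjusted p = 0.0020) at 7 dpf. The lowest library rests on 3 reads, and the 5 dpf call was lost without mutant replicate 1 (adjusted p = 0.083) or 2 (0.055) or sibling replicate 3 (0.065).

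Cystine and basic amino acids enter the same epithelia through SLC7A9, the light chain, bound to SLC3A1, its heavy chain. slc7a9 (ENSDARG00000005894; chromosome 7, 38507006 to 38527833, plus strand) stood at 0.913, 0.810 and 0.691 FPKM in mutants and at 2.37, 1.39 and 2.92 FPKM in siblings at 5 dpf. At 7 dpf the mutants were at 1.61, 1.61 and 1.29 FPKM and the siblings at 4.79, 4.46 and 2.91 FPKM. The groups did not overlap at either age, and the log2 fold change was -1.02 ± 0.23 (adjusted p = 0.035) at 5 dpf and -1.16 ± 0.23 (adjusted p = 0.012) at 7 dpf. Its partner slc3a1 was low throughout, at 0.127 to 0.440 FPKM in mutants and 0.307 to 1.58 FPKM in siblings, and was not called (-0.59, adjusted p = 0.36, and -0.80, adjusted p = 0.13). It passed the filter only through sibling libraries.

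The slc7a9 calls moved with the settings and with single libraries. At 5 dpf slc7a9 was not called with TPM (adjusted p = 0.11), total reads (0.083) or only the 2 groups (0.099). It was also lost there with no filter beyond a value above 0 (0.066), and at 7 dpf with TPM (0.051). The 5 dpf call of slc7a9 was lost without any of mutant libraries 1, 2 and 3 of 5 dpf (adjusted p = 0.089, 0.098 and 0.10), sibling library 1 of 5 dpf (0.093) or 3 (0.12), mutant library 2 of 7 dpf (0.052) or sibling library 2 of 7 dpf (0.050). The 7 dpf call of slc7a9 was lost without sibling library 1 of 7 dpf (0.055) or 2 (0.054).

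Most other carriers listed for absorption were not called. Of 15 tested genes on that list, 5 were lower at each age (the 4 SLC6 genes and slc7a9) and 1 was higher at 7 dpf. Among all genes tested, 2.16% and 3.25% were called lower at 5 and 7 dpf, and 1.8% higher at 7 dpf (limma). The median log2 fold change of the list was -0.24 at 5 dpf and -0.44 at 7 dpf. slc1a1, the epithelial glutamate carrier, was at 0.497 to 1.54 FPKM in mutants and 1.19 to 1.75 FPKM in siblings at 5 dpf, and was not called at either age (-0.40, adjusted p = 0.57, and -0.44, adjusted p = 0.43). slc36a1, a proton-driven carrier of small amino acids, stayed between 2.48 and 4.65 FPKM (-0.24, adjusted p = 0.55, and 0.26, adjusted p = 0.43). The basolateral light chain slc7a8a, known as LAT2 in mammals, was at 20.5, 22.0 and 20.7 FPKM in mutants and 18.9, 22.3 and 21.6 FPKM in siblings at 5 dpf, and at 66.3 to 76.4 against 62.5 to 73.5 FPKM at 7 dpf. Its log2 fold changes were 0.01 (adjusted p = 0.98) and 0.07 (adjusted p = 0.81). The difference between apical and basolateral carriers was not itself tested.

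slc43a2a was the listed carrier that rose. SLC43A2 (LAT4) lets branched-chain and other large neutral amino acids leave the cell in mammals. slc43a2a (ENSDARG00000036848; chromosome 15, 28368644 to 28405742, plus strand) stood at 32.6, 30.6 and 29.3 FPKM in mutants and 28.8, 25.7 and 29.1 FPKM in siblings at 5 dpf. At 7 dpf it reached 75.0, 72.2 and 81.7 FPKM in mutants, above the 44.0, 53.5 and 42.6 FPKM of the siblings. The log2 fold change was 0.14 ± 0.12 (adjusted p = 0.65) at 5 dpf and 0.71 ± 0.12 (adjusted p = 0.0053) at 7 dpf. The copy slc43a2b was at 23.8, 13.8 and 9.28 FPKM in mutants and 8.59, 6.84 and 5.28 FPKM in siblings at 7 dpf, which did not overlap and did not pass the test (1.05 ± 0.33, adjusted p = 0.097). With the replicate block within each age, with TPM and with total reads slc43a2b was called (adjusted p = 0.015, 0.038 and 0.042), as it was without mutant library 3 of 7 dpf (0.041).

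The heavy chain SLC3A2 (4F2hc) carries the SLC7 light chains to the membrane. slc3a2a (ENSDARG00000036427; chromosome 7, 20524064 to 20530447, plus strand) stood at 6.68, 12.1 and 11.7 FPKM in mutants and 18.2, 15.5 and 17.7 FPKM in siblings at 7 dpf. All mutant libraries were lower, and the log2 fold change was -0.77 ± 0.20 (adjusted p = 0.043), after -0.18 (adjusted p = 0.74) at 5 dpf. The abundant copy slc3a2b did not pass the test at 5 dpf (0.36, adjusted p = 0.62) or at 7 dpf (-0.11, adjusted p = 0.88). The slc3a2a call was marginal: it was lost when any of 10 libraries was left out, with adjusted p up to 0.13 (sibling library 1 of 7 dpf), 0.12 (sibling library 3 of 7 dpf), 0.081 (sibling library 2 of 7 dpf) and 0.075 (mutant library 1 of 7 dpf), and between 0.051 and 0.057 without any library of 5 dpf.

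Carriers that supply growing cells gave 2 of 20 higher and 1 lower (slc3a2a) at 7 dpf, and 0 at 5 dpf (limma), where 1 was higher and 1 lower at an unadjusted p under 0.05 and voom called 0. The shares of all genes called at 7 dpf were 1.8% higher and 3.25% lower (limma). slc7a6 (ENSDARG00000054423; chromosome 7, 28623294 to 28647959, minus strand) encodes y+LAT2, an exchanger of basic against neutral amino acids. At 7 dpf it stood at 4.20, 4.84 and 3.69 FPKM in mutants and 2.19, 2.64 and 1.96 FPKM in siblings, with a log2 fold change of 0.78 ± 0.17 (adjusted p = 0.021). At 5 dpf the groups overlapped (4.20, 4.85 and 5.65 against 3.52, 5.03 and 3.82 FPKM). SLC7A6OS lies 2 bases away on the opposite strand and was not called at either age, and the counting is not stated to use strand. The slc7a6 call was lost without mutant library 1 of 7 dpf (adjusted p = 0.050) or 2 (0.092) or sibling library 1 of 7 dpf (0.069) or 3 (0.085).

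slc7a1a (ENSDARG00000016439; chromosome 10, 24445698 to 24493323, plus strand), a carrier of arginine and lysine known as CAT1, stood at 4.50, 5.11 and 5.10 FPKM in mutants and 3.99, 2.87 and 2.83 FPKM in siblings at 7 dpf (0.55 ± 0.14, adjusted p = 0.046). At 5 dpf all mutant libraries were below the siblings instead, at 3.90, 3.73 and 4.04 against 4.26, 4.59 and 4.22 FPKM (-0.14, adjusted p = 0.70). The slc7a1a call at 7 dpf was lost when any of 10 libraries was left out, the exceptions being sibling library 2 of 5 dpf and sibling library 1 of 7 dpf. With 1 library left out, the highest adjusted p were 0.16 (sibling library 2 of 7 dpf), 0.15 (sibling library 3 of 7 dpf), 0.14 (mutant library 2 of 7 dpf) and 0.10 (mutant library 3 of 7 dpf), and the others were 0.058 to 0.069. The call was also lost with only the 2 groups (0.13), the replicate block over both ages (0.069) or within each age (0.096) and no filter beyond a value above 0 (0.056). Voom did not call slc7a1a either (0.062), and called a different gene of the list higher.

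On the same list, slc38a2, slc7a11 and slc7a5, which respond to amino acid shortage in mammals, were not called. slc38a2 (SNAT2) was at 8.08 to 10.5 FPKM in mutants and 10.4 to 12.3 FPKM in siblings at 5 dpf (-0.35, adjusted p = 0.34), and -0.32 (adjusted p = 0.30) on the log2 scale at 7 dpf. slc7a11, the cystine importer, was at 0.650, 0.913 and 0.793 FPKM in mutants and 1.04, 1.16 and 1.69 FPKM in siblings at 7 dpf, which did not overlap and did not pass the test (-0.47, adjusted p = 0.18). slc7a5 (LAT1) ranged from 0.0376 to 2.16 FPKM with no order by group, and it reached 0.5 FPKM in only 3 libraries.

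Transmitter carriers were called once at 5 dpf. Of 18 tested, 1 was lower at 5 dpf (limma and voom) and 0 were called at 7 dpf (limma and voom). Among all genes tested, 2.16% were called lower at 5 dpf (limma). At an unadjusted p under 0.05, 0 were higher and 4 lower at 5 dpf, and 6 were higher and 2 lower at 7 dpf. The median of the list was -0.34 at 5 dpf and 0.26 at 7 dpf on the log2 scale. slc1a3a (ENSDARG00000104431; chromosome 5, 8111350 to 8171625, minus strand) encodes the glial glutamate carrier EAAT1. It stood at 23.1, 24.1 and 26.9 FPKM in mutants and 34.6, 41.4 and 33.6 FPKM in siblings at 5 dpf, and at 35.0, 37.0 and 36.7 against 49.8, 45.2 and 43.8 FPKM at 7 dpf. The groups were apart at both ages, and the log2 fold change was -0.55 ± 0.12 (adjusted p = 0.030) and -0.35 ± 0.12 (adjusted p = 0.13). Glia markers, a list that holds slc1a3a and slc1a3b themselves, summed to 117 to 127 FPKM in mutants and 219 to 271 FPKM in siblings at 5 dpf, with 2 of 8 called lower (slc1a3a and a FABP7 copy), and their part in the result was not tested. The 5 dpf call of slc1a3a was lost with the replicate block within each age (adjusted p = 0.080), under total reads (0.084) and TPM (0.17), and without mutant library 1 of 5 dpf (0.13) or 2 (0.11), sibling library 1 of 5 dpf (0.053) or 2 (0.095), or sibling library 2 of 7 dpf (0.052).

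Both copies of SLC1A2 varied widely between libraries of a group. slc1a2a, a copy of the glutamate carrier EAAT2, was at 4.25, 1.82 and 0.623 FPKM in mutants and 0.363, 0.205 and 0.929 FPKM in siblings at 7 dpf (1.28 ± 0.49, adjusted p = 0.17). Its copy slc1a2b was at 19.96, 13.0 and 8.80 against 6.54, 5.25 and 12.1 FPKM (0.78, adjusted p = 0.32). Mutant 7 dpf replicate 1 was the highest library for both copies, and the summed neuron markers were also highest there, at 97.2 FPKM against 33.2 to 76.0 FPKM in the other libraries. Of the 9 neuron markers tested, 0 were called at either age (limma and voom), 3 were lower at 5 dpf and 2 higher at 7 dpf at an unadjusted p under 0.05, and their part in these values was not tested. slc6a9, the glial glycine carrier GlyT1, changed order with age: at 5 dpf the mutants were at 4.76, 6.20 and 5.43 FPKM, below the 6.85, 8.14 and 6.91 FPKM of the siblings, and at 7 dpf they were at 5.11, 4.81 and 3.69 FPKM, above 2.76, 3.10 and 3.39 FPKM. Neither difference passed the test (-0.39, adjusted p = 0.26, and 0.48, adjusted p = 0.099), although the 7 dpf difference was called under library weights (adjusted p = 0.025) and when both libraries of lowest weight were left out (0.041). slc6a4a, the serotonin carrier and the highest SLC6 member by the mean over all libraries, was at 9.46 to 13.5 FPKM in all libraries.

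Lysosomal, osmolyte and creatine carriers gave 0 calls between genotypes (limma and voom). Of 7 lysosomal carriers tested, 0 had an unadjusted p under 0.05 at either age, and of 3 osmolyte and creatine carriers, 1 was lower in this way at 5 dpf. slc38a9, which reports lysosomal arginine to mTORC1 in mammals, stood at 2.99 to 5.33 FPKM in all 12 libraries. The creatine carrier slc6a8 was at 7.35 to 13.6 FPKM, and the taurine carrier slc6a6b at 7.62 to 10.6 FPKM at 5 dpf and 10.4 to 19.3 FPKM at 7 dpf. Their groups overlapped at both ages.

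The second question was how the carriers moved from 5 to 7 dpf. In siblings 12 members rose and 11 fell, against 12.3% and 13% of all genes tested (23 members or 29.9% in either direction, against 25.3%). Scaling by total reads gave 7 and 12, and TPM 7 and 10. In mutants 8 rose and 2 fell, against 5.36% and 6.06% (10 members or 13.0% in either direction, against 11.4%). Rises common to both genotypes numbered 6 (slc3a2b, slc7a8a, slc38a5b, slc43a2a, slc7a1b and slc1a5), and slc6a11a, a GABA carrier, was the 1 member that fell in both. The shares of all genes that rose or fell in both genotypes were not counted, so these numbers are description only. In siblings 17 members did not overlap upwards and 18 downwards (20.5% and 20.4% of all genes), and in mutants 15 and 5 (15% and 16.3%).

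The rises included the 4F2hc heavy chain and a light chain it carries in mammals. slc3a2b (ENSDARG00000037012; chromosome 21, 26720803 to 26725478, plus strand) went from 53.0, 78.5 and 141 FPKM at 5 dpf to 368, 381 and 296 FPKM at 7 dpf in siblings, and from 97.9, 97.1 and 131 to 292, 365 and 312 FPKM in mutants. All 7 dpf libraries were above all 5 dpf libraries, with a log2 fold change of 2.04 ± 0.28 (adjusted p = 3.6e-04) in siblings and 1.58 ± 0.28 (adjusted p = 0.0047) in mutants. slc7a8a (ENSDARG00000075831; chromosome 7, 24208611 to 24236364, minus strand) rose by 1.67 ± 0.12 (adjusted p = 1.2e-05) in siblings and 1.73 ± 0.12 (adjusted p = 7.5e-05) in mutants, from the values given above. slc3a2a, the lower heavy chain copy, did not pass the test (0.52, adjusted p = 0.070, and -0.07, adjusted p = 0.86).

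Glutamine and neutral amino acid carriers followed. slc38a5b, a copy of the glutamine carrier SNAT5, went from 60.0, 86.0 and 81.7 to 157, 133 and 140.5 FPKM in siblings (0.93 ± 0.18, adjusted p = 0.0028) and from 55.1, 60.8 and 72.6 to 159.5, 117 and 116 FPKM in mutants (1.05 ± 0.18, adjusted p = 0.0037). slc1a5 (ASCT2), an exchanger of neutral amino acids including glutamine, rose from 24.7 to 29.2 FPKM at 5 dpf to 39.2 to 49.2 FPKM at 7 dpf in siblings (0.70 ± 0.16, adjusted p = 0.0065), and from 29.2 to 34.9 FPKM to 39.7 to 57.4 FPKM in mutants (0.53 ± 0.16, adjusted p = 0.047). slc43a2a rose by 0.73 ± 0.12 (adjusted p = 0.0012) in siblings and 1.29 ± 0.12 (adjusted p = 2.2e-04) in mutants. slc7a1b, the second CAT1 copy, went from 5.47, 8.80 and 5.86 to 16.6, 21.2 and 19.7 FPKM in siblings (1.47 ± 0.20, adjusted p = 3.8e-04) and from 6.78, 6.39 and 6.26 to 11.1, 11.02 and 17.6 FPKM in mutants (0.94 ± 0.20, adjusted p = 0.012). Its mutant libraries at 7 dpf were called lower than the siblings when mutant library 3 of 7 dpf was left out (adjusted p = 0.047 against 0.16), under library weights (0.021) and when both libraries of lowest weight were left out (0.011). In mutants the rise of slc1a5 was marginal, since it was lost when any of 9 libraries was left out, the exceptions being mutant library 2 of 7 dpf, sibling library 2 of 5 dpf and sibling library 3 of 7 dpf, with adjusted p from 0.050 to 0.14 (the latter for mutant library 3 of 5 dpf and mutant library 3 of 7 dpf).

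**Figure D3:**
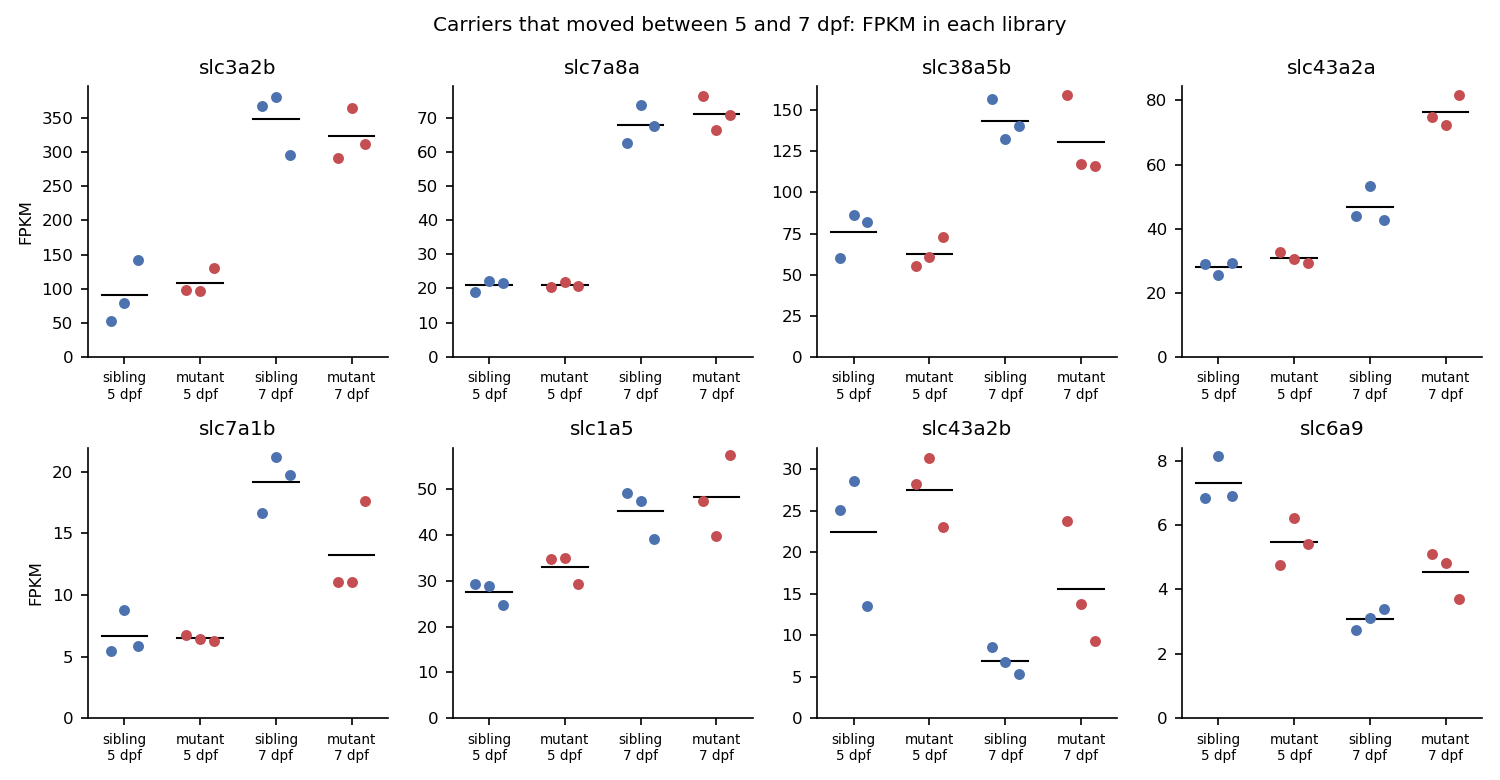
FPKM is plotted for 8 carriers that moved between 5 and 7 dpf in siblings, mutants or both, with a point per library in order of replicate number, blue for siblings and red for mutants, and a bar for the mean of 3. slc3a2b reaches 292 to 381 FPKM at 7 dpf in both genotypes, slc43a2a lies higher in mutants than in siblings at 7 dpf, and slc43a2b and slc6a9 fall in siblings.

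In siblings, absorptive carriers were among the rises. slc6a19b rose by 1.42 ± 0.26 (adjusted p = 0.0023), slc6a19a.2 by 1.05 (adjusted p = 0.046), slc6a18 by 1.02 (adjusted p = 0.043) and slc7a9 by 0.76 (adjusted p = 0.031) on the log2 scale. In mutants the same genes gave 0.50 (adjusted p = 0.26), 0.31 (adjusted p = 0.63), 0.48 (adjusted p = 0.41) and 0.62 (adjusted p = 0.11). The PepT1 copies were called in neither genotype with all libraries, at 0.97 (adjusted p = 0.15) for slc15a1b and 0.30 (adjusted p = 0.54) for slc15a1a in siblings, although slc15a1b was called without sibling library 1 of 5 dpf, the library that stood above the others. Apart from slc6a19b, these sibling calls were marginal. The slc6a19a.2 rise was lost when any of 9 libraries was left out, the exceptions being mutant libraries 1 and 2 of 5 dpf and sibling library 1 of 5 dpf, with adjusted p up to 0.15 (sibling library 2 of 5 dpf). The slc6a18 rise was lost without any of 7 libraries (mutant library 2 of 5 dpf, mutant libraries 1 and 2 of 7 dpf, sibling libraries 1 and 2 of 5 dpf, sibling libraries 1 and 3 of 7 dpf), with adjusted p up to 0.16 (sibling library 1 of 7 dpf). The slc7a9 rise was lost without sibling library 1 of 5 dpf (0.051) or 2 (0.11) or sibling library 1 of 7 dpf (0.11) or 2 (0.10).

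The falls in siblings included a copy of a carrier that rose. slc43a2b went from 25.1, 28.5 and 13.5 to 8.59, 6.84 and 5.28 FPKM (-1.58 ± 0.33, adjusted p = 0.0046), while slc43a2a rose. slc6a9 went from the 5 dpf values above to 2.76, 3.10 and 3.39 FPKM (-1.12 ± 0.15, adjusted p = 3.5e-04). slc1a4, an exchanger of neutral amino acids, went from 2.13, 3.38 and 2.75 to 0.811, 1.16 and 1.58 FPKM (-0.95, adjusted p = 0.0064). slc6a11a fell by 1.02 (adjusted p = 0.0030), slc1a8a, a glutamate carrier, by 1.08 (adjusted p = 0.023) and slc1a2a by 1.46 (adjusted p = 0.048) on the log2 scale. The mean of slc1a8a over all libraries was 0.431 FPKM. It reached 0.5 FPKM in 3 sibling libraries of 5 dpf, 1 mutant library of each age and 0 sibling libraries of 7 dpf. It therefore passed the filter only with the group it fell from, and its call is not independent of the filter. Photoreceptor markers fell in siblings over the same days in 6 of 8 (limma), against 13% of all genes tested. They summed to 204 to 485 FPKM at 5 dpf and 21.4 to 72.1 FPKM at 7 dpf. Also called lower were 4 of 10 enterocyte, 3 of 8 glia, 2 of 8 hepatocyte and 1 of 6 muscle markers. Of 9 pronephros and 9 neuron markers, 0 were called lower, and 1 pronephros and 1 muscle marker were higher. The part of these markers in the falls was not tested. In mutants the photoreceptor markers summed to 69.6 to 125 FPKM at 5 dpf and 38.6 to 119 FPKM at 7 dpf. Their median log2 fold change between genotypes was -1.13 at 5 dpf, with 1 called lower, and 0.71 at 7 dpf, with 0 called (limma). The slc1a2a call was lost without any of 7 libraries, with adjusted p of 0.15 without sibling library 3 of 5 dpf or sibling library 2 of 7 dpf, 0.11 without sibling library 2 of 5 dpf or sibling library 1 of 7 dpf, and 0.052 to 0.063 without mutant library 1 or 3 of 5 dpf or mutant library 2 of 7 dpf. The slc1a8a call was lost without sibling library 2 of 5 dpf (0.052) or 3 (0.081) or sibling library 1 of 7 dpf (0.051) or 2 (0.074).

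In mutants the other calls were few. slc43a1a, a copy of the large neutral amino acid carrier LAT3, went from 5.40, 6.34 and 2.07 to 1.76, 0.940 and 0.865 FPKM (-1.52 ± 0.42, adjusted p = 0.039). The gene overlaps SSRP1 on the opposite strand along 21416 bases. The call of slc43a1a was lost without mutant library 1 or 2 of 5 dpf (adjusted p = 0.14 each), mutant library 2 of 7 dpf (0.10) or 3 (0.11), or sibling library 2 of 7 dpf (0.054). slc6a6b rose by 0.78 (adjusted p = 0.021) and slc1a3a by 0.55 (adjusted p = 0.013), and slc6a11a fell by 0.71 (adjusted p = 0.040) on the log2 scale. Without mutant library 1 or 2 of 5 dpf, adjusted p was 0.055 and 0.076 for slc6a6b and 0.058 and 0.057 for slc1a3a, and without mutant library 3 of 7 dpf it was 0.058 for slc6a6b. The slc6a11a fall was lost without mutant library 1 of 5 dpf (0.14) or 3 (0.10) or mutant library 3 of 7 dpf (0.11), and at 0.051 to 0.053 without sibling library 1 or 3 of 5 dpf or sibling library 2 or 3 of 7 dpf.

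Whether the mutant effect itself changed with age was tested as an interaction. By limma, 0 of 77 members and 0 of all 23648 genes (0%) were called, 10 members and 2455 of all genes had an unadjusted p under 0.05, and voom called 0 of both. The lowest adjusted p among members was 0.24 (slc6a9, 0.87 ± 0.22). For the 8 carriers lower at both ages the difference of the log2 fold changes ran from -0.92 ± 0.37 (slc6a19b, adjusted p = 0.43) to 0.20 ± 0.53 (slc6a19a.1, adjusted p = 0.93). For slc15a1b its 95% confidence interval was -2.01 to 0.85. The higher level of slc43a2a at 7 dpf gave 0.56 ± 0.17 (adjusted p = 0.30), so a change of its mutant effect with age was not shown.

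Peptidases that make the substrates of these carriers were read as a list beside them. Of 21 tested brush border peptidases and carrier partners, 10 fell at 5 dpf and 12 at 7 dpf, while 0 were called higher (limma and voom; 3 at 7 dpf and 0 at 5 dpf at an unadjusted p under 0.05), with a median log2 fold change of -0.79 and -1.36. Among all genes tested, 2.16% were called lower at 5 dpf and 3.25% at 7 dpf (limma). Collectrin (cltrn), a partner of apical carriers in the mammalian kidney, was not called (-0.54, adjusted p = 0.50, and -0.15, adjusted p = 0.86). Genes of the list lower at both ages included both mep1a genes, dpp4, XPNPEP2, naaladl1, ace, 1 MEP1B copy and 2 of 3 ANPEP copies. The cytosolic peptidases CNDP2, PEPD and LAP3 were not called.

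Lists on how cells answer to amino acids gave few calls between genotypes. Of 23 tested genes of the ATF4 and amino acid response, 0 were called at 5 dpf and 1 at 7 dpf, PSAT1, an enzyme of serine synthesis (1.56, adjusted p = 0.0028). Voom gave the same counts, and at an unadjusted p under 0.05, 5 genes of this list were higher and 0 lower at 5 dpf (limma). Among all genes tested, 1.8% were called higher at 7 dpf (limma). The list summed to 774 to 843 FPKM in mutants and 585 to 703 FPKM in siblings at 5 dpf, without overlap. At 7 dpf the sums overlapped (758 to 1112 against 903 to 1124 FPKM). The difference of the sums was not tested. Of 21 tested genes of amino acid sensing by mTORC1, 0 were called at either age (limma and voom), with 2 higher at 7 dpf at an unadjusted p under 0.05. Of 13 tested amino acid and transmitter carriers of other families, 0 were called at either age by limma or voom, with 3 lower at 5 dpf and 3 higher at 7 dpf at an unadjusted p under 0.05. The median log2 fold changes of these 3 lists at 5 and 7 dpf were 0.03 and -0.08, 0.06 and 0.1, and -0.26 and 0.09 in this order (limma).

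Markers of the organs that hold these carriers moved with genotype to different degrees. Among all genes tested, 2.16% were called lower at 5 dpf and 3.25% at 7 dpf (limma). Of 12 enterocyte markers matched, 10 were tested, with 4 called lower at 5 dpf and 7 at 7 dpf, while 1 FABP1 copy was listed at 0 in all libraries. Their summed level was 417 to 597 FPKM in mutants against 1181 to 1552 FPKM in siblings at 5 dpf, and 90.1 to 195 against 675 to 801 FPKM at 7 dpf. VIL1 and cdx1b, which mark the intestinal epithelium, were not called (VIL1 -1.02, adjusted p = 0.072, and -1.0, adjusted p = 0.055). By in situ hybridization of whole larvae, the paper reports both genes as strongly reduced in mutants at both ages. On simulated data for the 5 dpf comparison, limma called only 20 of 99 genes changed by 1 on the log2 scale. The missing calls therefore do not show that these markers were unchanged. Of 8 hepatocyte markers, 2 fell at 5 dpf and 7 at 7 dpf, with summed levels of 1545 to 2557 against 2903 to 6027 FPKM and 346 to 527 against 2550.0 to 3059 FPKM. Pronephros markers were lower in 2 of 9 at both ages, lrp2b and CUBN, which serve protein uptake (limma and voom). At an unadjusted p under 0.05, 2 were higher and 4 lower at each age, and voom called 1 higher at 7 dpf, an LRP2 copy with means of 0.783 FPKM in mutants and 0.378 FPKM in siblings. The summed level overlapped between genotypes (67.0 to 70.9 against 58.1 to 69.7 FPKM at 5 dpf, and 69.6 to 82.4 against 54.8 to 87.6 FPKM at 7 dpf). Of 6 muscle markers, 0 were called at either age by limma or voom, or had an unadjusted p under 0.05. The part of these markers in the fall of the absorptive carriers was not tested.

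**Figure D4:**
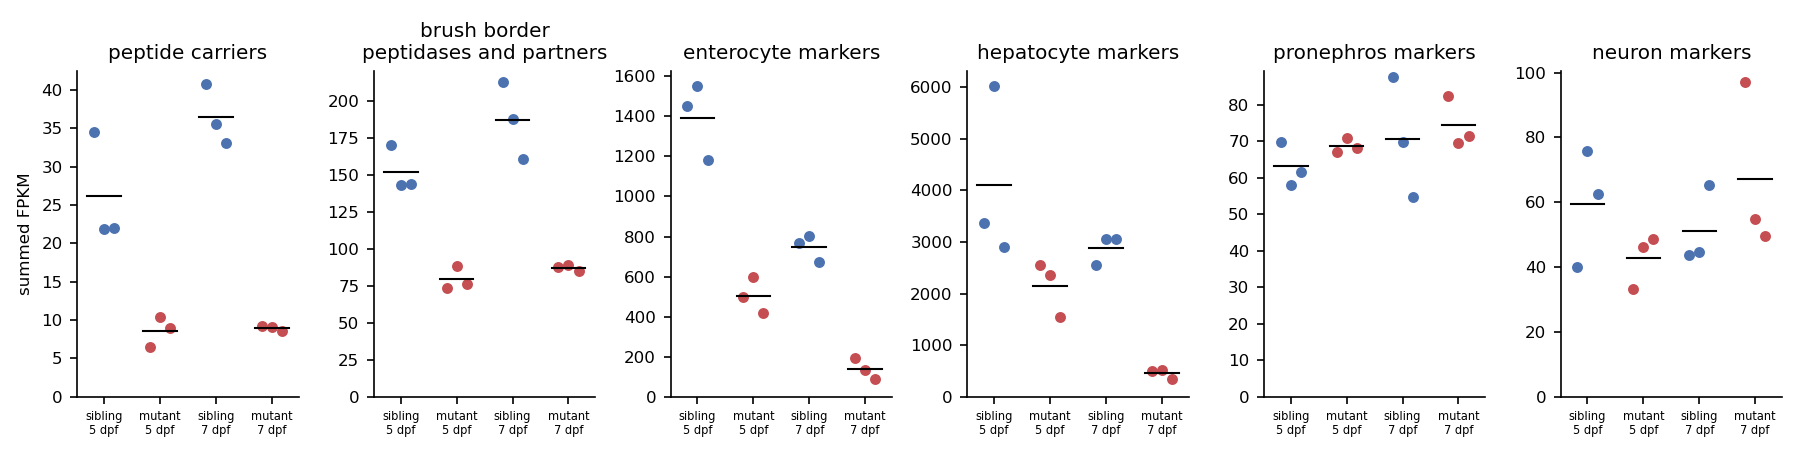
The summed FPKM of 6 gene lists is plotted with a point per library, blue for siblings and red for mutants, and a bar for the mean of 3. Peptide carriers (6.53 to 10.4 FPKM in mutants, 21.8 to 40.7 in siblings), brush border peptidases and enterocyte markers lie lower in mutants at both ages, and pronephros and neuron markers overlap.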

How the data were processed

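Whole AB larvae of both genotypes were pooled at 5 and 7 dpf, 3 libraries per group. Per the labels and the study's methods, the authors mapped reads to GRCz11 and deposited FPKM, 1 value per gene and library. HISAT2 2.0.5 comes from the submitters' processing notes; counter, strand setting and annotation release: not given in the sources used here. Values were whole multiples of 1 read (within 0.01 of a read, below 10000 reads), which gave 13403615 to 15084280 reads per library, and the authors' library scaling equalled median of ratios size factors over 24150 genes to within 1e-06%. No library was repeated, and 0 columns of other samples were found.

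In R 4.3.3, limma 3.58.1 fitted the 4 groups to log2(FPKM + 0.5) with a variance trend over 23648 genes that reached 0.5 FPKM in 3 or more of 12 libraries. Benjamini-Hochberg adjustment ran over all of them, and a gene was called under 0.05. Alternatives were other pseudocounts, filters, scalings (TPM, median of ratios), blocks, library weights, voom, only the 2 groups compared, and leaving out each library. Median of ratios is the authors' own scaling, so that alternative repeated the main fit and could not change a call. Scaling by total reads, leaving out the 2 libraries of lowest weight and testing only genes with a symbol were added after seeing the data. Tested on simulated data for the 5 dpf comparison (23152 genes), limma called 84 of 100 genes changed by 2 on the log2 scale, 20 of 99 changed by 1, and 4 of 22953 unchanged ones. The changed genes were drawn from those with a mean above 20 scaled reads, and no pairing of libraries was simulated. So a small change can be missed at this depth and number of libraries, and the rates do not describe carriers with fewer reads.

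The members and lists were chosen with earlier results of these data known. Named genes are all members called between genotypes, the 6 called members of largest rise and fall with age in each genotype, the highest member of each family, and a set named whatever their values (copies of SLC15A1, SLC6A18, SLC6A19, SLC6A20, SLC3A1, SLC3A2, SLC7A5, SLC7A7, SLC7A8, SLC7A9, SLC7A11, SLC1A1, SLC1A2, SLC6A8, SLC36A1, SLC38A2, SLC38A9 and SLC43A2). slc15a4, slc6a11b, slc38a3a, slc38a6 and the genes named from the pathway and marker lists were picked after their values were seen. Copy names required at least 3 shared neighbours within 10 genes on each side.

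Deviations from the group means correlated between same-numbered mutant and sibling libraries at 5 dpf (0.272, 0.129 and 0.217) and not at 7 dpf (0.054, 0.087 and -0.023). The numbers were therefore taken to pair the 5 dpf libraries, from the data and not from the labels. The main fit, which gave the calls above, did not use this pairing. The alternative with the replicate block within each age did. With it, slc6a19b and slc1a3a lost their 5 dpf calls (limma, adjusted p = 0.086 and 0.080). Some genes are not reported here.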

Additional observations from a re-analysis of the deposited data

Results flagged for a closer look

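In 3 carriers the groups separated without overlap in opposite directions, either between genotypes at 5 and 7 dpf or with age in siblings and mutants. Over all genes tested, a single separation of this kind, in a given direction, held for 9.31% to 12.9% between genotypes and 15% to 20.5% with age. How many of all genes separated in opposite ways was not counted, so nothing is read from the number of carriers. slc6a9 was lower in all mutant libraries at 5 dpf and higher in all at 7 dpf, and the log2 fold changes differed by 0.87 ± 0.22 (unadjusted p = 0.0017, adjusted p = 0.24 by limma). slc7a1a did the same, with a difference of 0.69 ± 0.20 (unadjusted p = 0.0046, adjusted p = 0.27), and it also fell with age in all sibling libraries and rose in all mutant ones (0.69 again, the same interaction). slc38a6, which fell with age in siblings (4.18 to 5.25 to 3.91 to 4.11 FPKM) and rose in mutants (4.45 to 5.41 to 5.47 to 6.60 FPKM), differed by 0.42 ± 0.19 (unadjusted p = 0.046, adjusted p = 0.47). None of the 3 differences passed the test over all genes.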

How the results depend on the processing

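Single results were followed for all calls between genotypes, but with age only for the named carriers. Of 48 such called results, 27 kept their call under every alternative and 0 changed direction. Of 55 results not called, 52 stayed so. Calls with age of the other members are not in these counts, and some of them in siblings were lost under alternatives such as TPM. The carriers called lower at 5 dpf (9) fell to 5 with TPM and 4 with only the 2 groups, and to 3 to 9 when 1 library was left out (3 without mutant library 1 of 5 dpf, 5 without sibling library 3 of 5 dpf). Those higher at 7 dpf (3) numbered 8 with TPM, 8 with total reads, 11 with library weights, 6 without the 2 libraries of lowest weight and 5 with only genes with a symbol, and 1 to 5 with 1 library left out (1 without mutant library 1 or 2 or sibling library 3 of 7 dpf, 5 without sibling library 2 of 5 dpf). Those lower at 7 dpf stayed at 7 to 11. The rises in siblings (12) fell to 7 with TPM or total reads and 7 to 12 with 1 library left out (7 without sibling library 1 of 7 dpf), and the falls (11) to 7 without the 2 lowest-weight libraries and 6 to 12 with 1 left out (6 without sibling library 2 of 5 dpf, 7 without sibling library 1 of 7 dpf). The rises in mutants (8) fell to 5 to 8 without 1 library (5 without mutant library 1 or 2 of 5 dpf). The falls in mutants (2) numbered 0 with no filter, 0 with only the 2 groups, 0 without the 2 lowest-weight libraries, 1 with TPM and 0 to 3 with 1 library left out (0 without mutant library 1 of 5 dpf, mutant library 3 of 7 dpf or sibling library 2 of 7 dpf). The cause was not tested. The genotype medians of all genes were 0.018 and 0.014, and total reads moved them to 0.118 and 0.159, TPM to 0.195 and 0.204.

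With the replicate block within each age the lower calls at 5 dpf numbered 7 and at 7 dpf 8 (without slc3a2a, adjusted p = 0.071), and slc7a1a was lost at 7 dpf (0.096) while slc43a2b was gained (0.015). The block over both ages also gave 7 and 8. It assumes a pairing at 7 dpf, which the correlations of mutant with sibling libraries at 7 dpf did not show. Across the ages, same-numbered libraries correlated at 0.114, 0.037 and 0.098 in siblings and at -0.065, 0.032 and -0.048 in mutants. Whether the numbers are shared across ages was not tested.

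Directions reversed only for differences that were not called. At 5 dpf these were slc1a4 (0.17 with TPM, 0.10 with total reads, 0.06 with weights, 0.00 with voom, 0.13 without the 2 lowest-weight libraries), slc7a1b (0.17, 0.10, 0.06 and, without those 2 libraries, 0.18), slc7a1a (0.03, TPM), slc38a9 (0.06, TPM), slc3a2a (0.01, TPM) and slc7a11 (-0.02 without those 2 libraries). At 7 dpf these were slc38a5b (0.07 with TPM, 0.04 with total reads), slc38a9 (0.09, 0.05), slc3a2b (0.11, 0.08), slc6a8 (0.03, 0.00), slc6a11a (0.08, 0.05, 0.01 with weights, 0.13 without those 2 libraries), slc6a6b (-0.05 without them) and slc1a5 (-0.07 with weights, -0.05 without them). With 1 library left out, differences that crossed 0 ran at 5 dpf from -0.15 to 0.13 (slc1a4), -0.05 to 0.29 (slc6a8), -0.02 to 0.17 (slc7a11), -0.06 to 0.05 (slc7a8a), -0.05 to 1.13 (slc7a5), -0.14 to 0.18 (slc7a1b) and -0.31 to 0.44 (slc1a2b), and at 7 dpf from -0.34 to 0.03 (slc38a9), -0.11 to 0.27 (slc7a8b), -0.23 to 0.13 (slc6a11a), -0.05 to 0.28 (slc6a6b) and -0.05 to 0.21 (slc1a5). Carriers under 1 FPKM rest on few reads, and how often a difference is missed at that level was not tested.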

Other observations

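In slc38a3a, a copy of the glutamine carrier SNAT3, the 3 libraries of each group stood in the same order of replicate number. It stood at 0.996, 0.0712 and 0.231 FPKM in mutant 5 dpf libraries 1 to 3, at 0.618, 0.0869 and 0.478 FPKM in sibling 5 dpf, at 0.689, 0.0629 and 0.325 FPKM in mutant 7 dpf, and at 0.487, 0.0581 and 0.389 FPKM in sibling 7 dpf. Replicate 1 was the highest and replicate 2 the lowest in all 4 groups. The gene was low, with a mean of 0.374 FPKM, and reached 0.5 FPKM in only 3 libraries. It was picked after its values were seen. How many genes share this order was not counted, so nothing is read from it about the replicate numbers.

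slc6a11b, a copy of a GABA carrier, was at 5.58, 3.61 and 3.26 FPKM in mutants and 0.689, 0.544 and 1.69 FPKM in siblings at 7 dpf (1.70, adjusted p = 0.062). It was called higher at 7 dpf under 7 alternatives: TPM, total reads, only the 2 groups, library weights, without the 2 libraries of lowest weight, only genes with a symbol, and without sibling library 2 of 5 dpf. At 5 dpf sibling replicate 2 (6.28 FPKM) stood apart from replicates 1 and 3 (1.05 and 1.17 FPKM), and the mutants were at 2.89, 3.55 and 3.61 FPKM.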
